A study of Mus musculus with 16 samples.

Results

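The genes described here carry the signal of leukaemia inhibitory factor (LIF) in mouse embryonic stem (ES) cells: the receptor subunit genes Lifr and Il6st, the kinase gene Jak1, the transcription factor gene Stat3, the inhibitor gene Socs3, and the target genes Pim1 and Gbx2. Accessible regions came from ATAC-seq, in which a transposase cuts open chromatin, and the list used here merges the regions of all libraries. A region was assigned to a gene when its centre lay in the gene body or within 100 kb of any annotated transcription start site (TSS) of that gene. By this rule 102 of the 81132 regions of the list, or 0.126%, belonged to the 7 loci, and no region was assigned to more than 1 of them.

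LIF binds a receptor made of LIFR and the signalling subunit gp130, the product of Il6st. Janus kinases bound to the receptor phosphorylate STAT3, which then enters the nucleus, binds DNA and activates genes that sustain self-renewal of mouse ES cells. SOCS3 is itself induced by STAT3 and limits the signal by acting on the receptor and its kinases.

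The cells were SBROS mouse ES cells, a line obtained through successive single clones on the CGR8 background. The cells carry the SNAP tag on both copies of Sox2 and the HALO tag on only 1 copy of Oct4. They also carry the Sox1 and Brachyury reporters of the parental SBR line. After labelling with HaloTag TMR (100 nM), SNAP-SiR647 (12 nM) and Hoechst, cells in G1 phase were sorted by both tags into 4 populations named SHOH, SHOL, SLOH and SLOL, where SH and SL stand for high and low SOX2-SNAP and OH and OL for high and low OCT4-HALO, with 3 replicates each and 12 ATAC-seq libraries in all. All 4 populations were grown with serum, LIF, CHIR99021 (3 µM) and PD184352 (0.8 µM), so that LIF was present throughout and no LIF-free cells were compared. The 4 ChIP-seq samples of the study were not analysed here. The merged list gives the position of each region and no level per library, so the 4 populations were not compared, the number of reads behind a region is not given, and values below have no error between replicates.

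The letters bound by STAT proteins, TTCNNNGAA, read the same on both strands and are called a STAT site here. A match describes the letters and does not show binding. At least 1 STAT site occurred in 14 of the 102 regions, and 3 regions held at least 2 sites. The stretches below come from these 3 regions and from the region at the Jak1 start, the only other one with a site within 1 kb of a TSS of its gene. All are from the GRCm38 assembly (mm10), written 5′ to 3′ along the strand of the named gene, with STAT sites in capitals. The Lifr stretch lies at chr15:7115505-7115704 (plus strand) in an intron of Lifr. The Jak1 stretch lies at chr4:101264504-101264702 (minus strand) in an intron of Jak1. Both Socs3 stretches, chr11:117969187-117969342 and chr11:117969417-117969559 (minus strand), belong to the region over the Socs3 promoter. Both Pim1 stretches, chr17:29459443-29459641 and chr17:29459680-29459806 (plus strand), belong to a region upstream of Pim1, in an intron of the non-coding genes AC163629.2 and Gm26885.
Lifr intron: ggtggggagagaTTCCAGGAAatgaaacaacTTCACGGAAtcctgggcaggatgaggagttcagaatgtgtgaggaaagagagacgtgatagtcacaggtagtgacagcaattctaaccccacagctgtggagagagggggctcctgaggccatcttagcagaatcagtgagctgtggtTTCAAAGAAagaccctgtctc
Jak1 intron: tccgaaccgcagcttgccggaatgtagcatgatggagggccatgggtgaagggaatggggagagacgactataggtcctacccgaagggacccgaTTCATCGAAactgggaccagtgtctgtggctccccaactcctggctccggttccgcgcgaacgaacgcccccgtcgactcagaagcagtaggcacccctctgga
Socs3 promoter, proximal stretch: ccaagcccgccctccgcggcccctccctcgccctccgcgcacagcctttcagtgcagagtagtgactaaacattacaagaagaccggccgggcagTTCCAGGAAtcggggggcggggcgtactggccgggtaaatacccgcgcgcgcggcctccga
Socs3 promoter, distal stretch: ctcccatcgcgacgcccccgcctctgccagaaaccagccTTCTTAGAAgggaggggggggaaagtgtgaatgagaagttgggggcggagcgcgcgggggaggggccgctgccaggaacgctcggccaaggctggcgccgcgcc
Pim1 upstream, distal stretch: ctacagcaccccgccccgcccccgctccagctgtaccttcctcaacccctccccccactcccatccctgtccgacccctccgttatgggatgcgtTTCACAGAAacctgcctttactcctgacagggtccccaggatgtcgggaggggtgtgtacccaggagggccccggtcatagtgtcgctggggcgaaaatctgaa
Pim1 upstream, proximal stretch: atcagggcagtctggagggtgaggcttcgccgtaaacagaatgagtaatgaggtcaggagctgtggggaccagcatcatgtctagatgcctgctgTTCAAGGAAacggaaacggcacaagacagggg

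Each of the 7 genes had a region overlapping at least 1 of its promoters, taken as the stretch from 1000 bp before a TSS to 100 bp after it. Over all 21938 protein-coding genes of chromosomes 1 to 19, X and Y, 66.5% had such a region. A TSS itself lay inside a region for 23 of the 49 annotated TSSs of the 7 genes (46.9%), near the 44.1% found for 93513 TSSs of all protein-coding genes. The number of regions ranged from 8 at Stat3 to 20 at Socs3, with a median of 15 per window, beside a median of 11 (quartiles 6 and 17) over all protein-coding genes. Because long genes have larger windows, counts were also divided by window length. Density was highest at Socs3 with 9.96 regions per 100 kb and at Pim1 with 9.38, above 88.4% and 85.5% of all protein-coding genes. Il6st (7.11) and Gbx2 (6.93) were above the median of 5 regions per 100 kb over all genes. Jak1 (4.84), Lifr (4.17) and Stat3 (3.21) lay below it, Stat3 at the 31.4th percentile. The order of the counts depended on the settings: Lifr had the most regions with a reach of 20 kb (10, beside 7 at Socs3 and 6 at Pim1) and in gene bodies alone (8, beside 2 and 3), Pim1 had the most with 50 kb (13, beside 11 at Socs3), and without regions narrower than 200 bp Socs3 and Pim1 had 13 each. Densities under other settings were compared after seeing the data. Socs3 and Pim1 stayed the highest with a reach of 20 kb (17.1 and 14.1 regions per 100 kb) and 50 kb (10.9 and 12.7). Where the member had to be the closest gene, Pim1 (5.92) and Gbx2 (4.95) lay above Socs3 (4.48). The window length was kept whole in that setting and without narrow regions, so densities there could not rise. In the same comparison, Lifr rose to 7.88 with a reach of 20 kb, 6.11 with 50 kb and 7.49 in its gene body. Its body of 106.9 kb was still far sparser than those of Pim1 (56.0, over 5.36 kb) and Socs3 (50.4, over 3.969 kb). Gbx2 fell to 0 in its gene body. Jak1 rose to 5.17 with TSSs of protein-coding transcripts alone. By closest gene, Il6st fell to 4.27 and Stat3 to 0.802. The side of 5 on which Lifr, Jak1, Il6st, Gbx2 and Socs3 lay thus depended on the settings, while Pim1 stayed above it and Stat3 below it. The median of 5 itself was taken with the main settings alone.

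**Figure D1:**
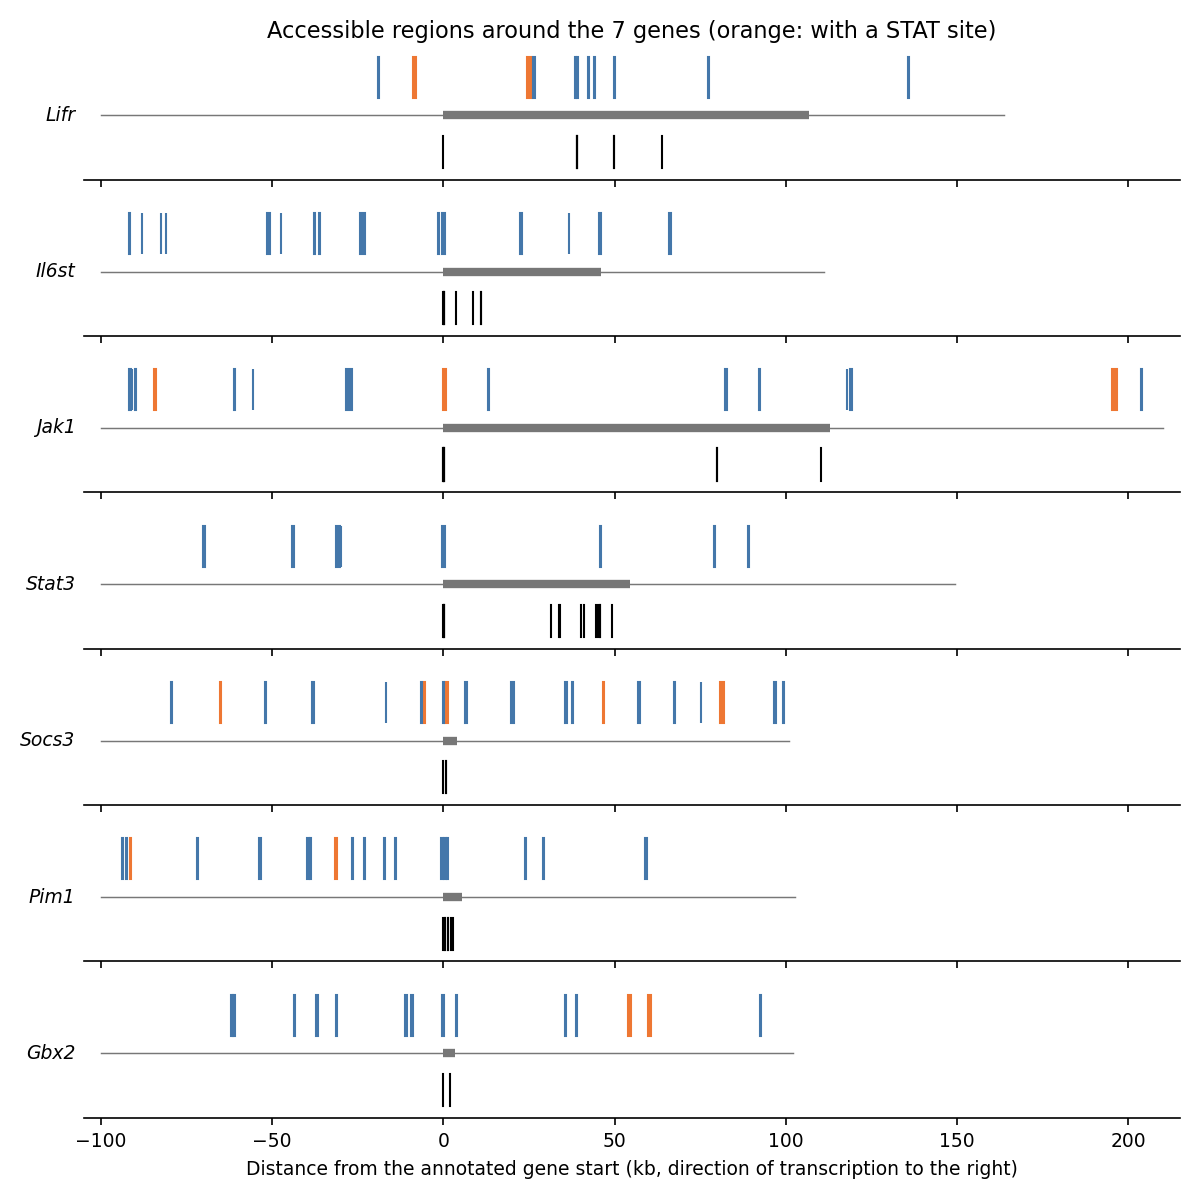
Maps of the 7 loci by distance from the annotated gene start in kb, with transcription to the right. Upper boxes are accessible regions (outlined so that narrow ones stay visible; orange with a STAT site, blue without), the thick grey bar is the gene body, the thin line the window, and black ticks below are annotated TSSs; Socs3 has 20 regions and Stat3 has 8.

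**Figure D2:**
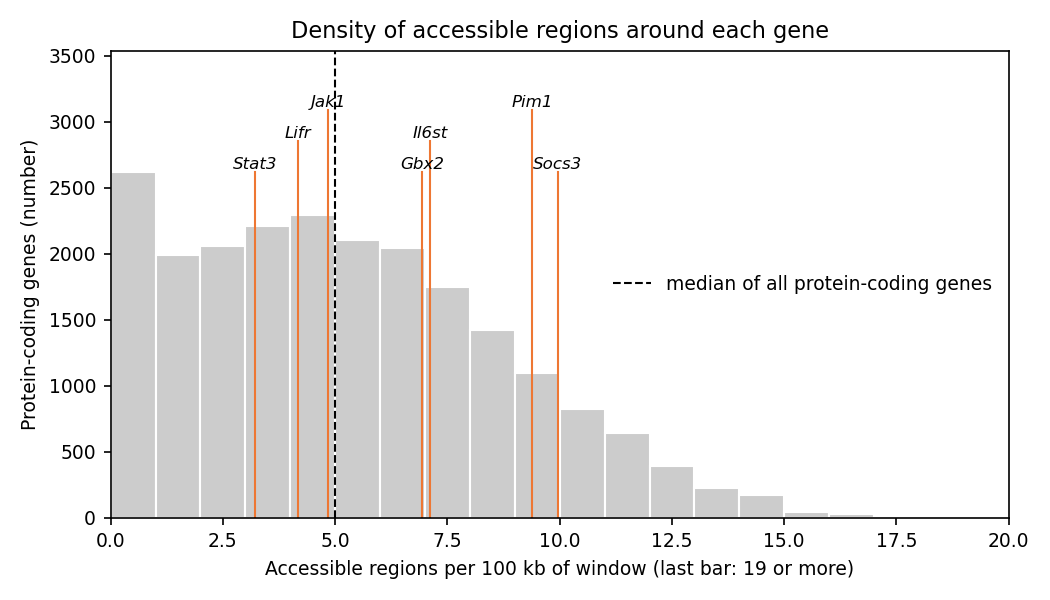
Number of protein-coding genes (y axis) by accessible regions per 100 kb of window (x axis), in grey bars, with the 7 genes as orange lines and the median of 5 as a dashed line. With the main settings, Socs3 and Pim1 lie above 88.4% and 85.5% of the genes, and Stat3, Lifr and Jak1 lie below the median.

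Lifr, which encodes the LIF-binding subunit of the receptor, is at chr15:7090614-7197489 on the plus strand. Its window held 11 regions, 8 of them inside the gene body, and Lifr was the closest protein-coding gene for 10. None overlapped the first annotated TSS at the gene start. The promoter regions lay at internal start sites instead. The regions chr15:7128883-7129367 and chr15:7129562-7129831 were centred 38511 and 39082 bp into the gene, the latter with its centre in an exon annotated as UTR and with a GC content of 74.4%. A further promoter region, chr15:7140314-7140563, covered 2 TSSs and consisted of repeat-masked sequence for 52.0% of its bases. The widest region of the window, chr15:7115128-7116145 (1018 bp, wider than 95.6% of all regions), lay in an intron, 25022 bp into the gene, and was also the one inside the gene body farthest from a Lifr TSS. It held 3 STAT sites, TTCCAGGAA, TTCACGGAA and TTCAAAGAA, and 2 octamers (ATGCAAAT, the letters bound by OCT4). At least 3 STAT sites occurred in 75 of all 81132 regions (0.0924%), and in 0.418% of regions whose width was within 10% of this one. The only other Lifr region with a STAT site, chr15:7081831-7082450, lay 8474 bp upstream of the gene start.

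Il6st, which encodes gp130, the subunit shared by receptors of the interleukin-6 family, is at chr13:112464070-112510086 on the plus strand. Its window held 15 regions, and 11 of them had their centre upstream of the gene start. The promoter region chr13:112463673-112464375 (703 bp, GC content 72.0%) covered 4 of the 8 annotated TSSs. The widest region, chr13:112439746-112441058 (1313 bp), was intergenic, 23668 bp upstream, and held 5 KLF sites (GGGNGTGG) on either strand. Inside the gene body, 3 regions were found, the farthest from a TSS being chr13:112509534-112509954 in an exon annotated as UTR near the gene end. No STAT site was found in any of the 15 regions, where the shares in regions of the same length add up to 1.62 regions. These letters occurred 91 times in the window, each time outside accessible regions. A region singled out after its values were seen, chr13:112462373-112462821, lay 1473 bp upstream of the start and held 1 octamer and 2 SOX sites (CCATTGT or CCTTTGT). It was the only region of the 102 with both motifs, which occurred together in 0.624% of all regions. At the far upstream end of the window, Ankrd55 was the closest protein-coding gene for 4 regions.

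Jak1, which encodes a Janus kinase that associates with gp130, is at chr4:101152367-101265282 on the minus strand. Its window was the largest, 310.2 kb, and held 15 regions, of which 4 were in the gene body and 9 had Jak1 as the closest protein-coding gene. The promoter region chr4:101264436-101265477 (1042 bp, GC content 67.5%) covered 5 of 8 TSSs. It held the STAT site TTCATCGAA, 620 bp downstream of the closest TSS. The widest region of all 7 loci, chr4:101292012-101293600 (1589 bp, wider than 99.7% of all regions), lay 27524 bp upstream of Jak1 in an intron of the non-coding gene Gm12796. It held no STAT site. Inside the gene, the region farthest from a TSS was chr4:101252025-101252196, an intronic region of 172 bp. The other STAT-site regions of the window, chr4:101068650-101070025 and chr4:101349249-101349812, had Raver2 and Ak4 as closest genes, and Ak4 was closest for 4 regions.

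Stat3, the transcription factor of the pathway, is at chr11:100885098-100939540 on the minus strand, in a cluster with Stat5a and Stat5b. It had the fewest regions, 8, and only 2 of them were closest to Stat3 itself. The promoter region chr11:100939120-100940051 (932 bp) covered the 4 TSSs of protein-coding transcripts, while the other 10 TSSs, all of non-coding transcripts, lay in no region. The only region in the gene body, chr11:100893445-100893737 (293 bp), lay in an exon and overlapped the promoter of a retained-intron transcript. Of the remaining regions, chr11:100850347-100850510 lay 110 bp from a Stat5b TSS and chr11:100860235-100860628 lay 53 bp from a Stat5a TSS. Cavin1 was the closest gene for 3 regions, among them the widest of the window, chr11:100969726-100970828 (1103 bp). None of the 8 regions held a STAT site, beside a sum of 1.02 from regions of the same length.

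Socs3, the feedback inhibitor of the pathway, is at chr11:117966079-117970047 on the minus strand. Its short gene body of 3969 bp held 2 of the 20 regions of its window, and 9 regions had Socs3 as the closest protein-coding gene. The other 11 were closest to Tha1 (6) or Pgs1 (5). Both regions of the gene body overlapped promoters, and between them they covered all 3 annotated TSSs. The region chr11:117968822-117969559 (738 bp, GC content 69.9%) held the STAT sites TTCCAGGAA and TTCTTAGAA, of which the first was 57 bp from the TSS of the protein-coding transcript and the second 65 bp from that of a non-coding transcript. At least 2 STAT sites occurred in 1.09% of all regions and in 2.18% of regions of the same length as this one. The second promoter region, chr11:117969949-117970130, was 182 bp wide and held none. The widest region of the window, chr11:117888057-117889362 (1306 bp), was intergenic and 80477 bp from the closest Socs3 TSS. With 5 STAT-site regions, Socs3 had the highest count of the 7 loci, where the shares in regions of the same length add up to 2.22. Besides the promoter and the widest region, these were chr11:117923282-117923449, chr11:117975441-117975864 and chr11:118034927-118035433. The widest region was closer to Tha1 (15228 bp) and the last one closer to Pgs1 (22837 bp), which leaves 3 STAT-site regions with Socs3 as the closest gene.

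Pim1, a serine/threonine kinase gene induced by STAT3, is at chr17:29490753-29496112 on the plus strand. Its window held 19 regions, and 13 of them had their centre upstream of the gene start. In 4 separate regions, accessibility was recorded around its promoters: chr17:29490032-29490620, chr17:29490923-29491377, chr17:29491396-29491531 and chr17:29491836-29492123, with widths of 589, 455, 136 and 288 bp. Only 2 of the 7 annotated TSSs lay inside them, and the first annotated TSS fell between the first and second region. The widest region, chr17:29450945-29451613 (669 bp), lay 39474 bp upstream. The region chr17:29459221-29459806 (586 bp), 31240 bp upstream, held the STAT sites TTCACAGAA and TTCAAGGAA. At least 2 such sites occurred in 1.62% of regions of the same length. The other STAT-site region, chr17:29399320-29399516, was closest to Fgd2, as were 4 regions of the window in all.

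Gbx2, a homeobox gene induced by STAT3 in ES cells, is at chr1:89927956-89931179 on the minus strand. Its window held 14 regions, 10 of them with Gbx2 as the closest protein-coding gene and 3 with Asb18. No region had its centre inside the gene body. The promoter region chr1:89930952-89931550 (599 bp, GC content 66.3%) was centred 72 bp from the gene start and covered the TSS of the protein-coding transcript. STAT sites were found in chr1:89870465-89871355, with the letters TTCCCAGAA, and in chr1:89876449-89877179, with the letters TTCTTTGAA. The former was the widest region of the window (891 bp), and both lay in introns of Agap1, 58275 and 52371 bp from the closest Gbx2 TSS. The latter also held 2 octamers.

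Over the 7 loci, a STAT site was present in 13.7% of the regions (14 of 102; 95% Wilson interval 8.36 to 21.7%), beside 11.7% of all 81132 regions. Longer regions hold more matches, so each region was also set beside all regions of a width within 10% of its own, which gave a mean share of 11.0%, or 11.2 regions. The interval covers counting error only and includes both background shares. The windows held 566 STAT sites, of which 18 (3.18%) were inside accessible regions, while these regions made up 2.59% of the window length. The stricter letters TTCCNGGAA occurred in 4 of the 102 regions (3.92%) and in 1.89% of all regions. These 4 were the Lifr intron region, the Socs3 promoter region, chr11:117923282-117923449 and chr4:101349249-101349812. In the RefSeq promoter sequences of the GRCm38.p6 assembly (250 bases before to 50 after a start), all 7 genes were matched, with 9 promoters. Only the Socs3 promoter held a STAT site, beside 8.3% of 32851 promoters.

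**Figure D3:**
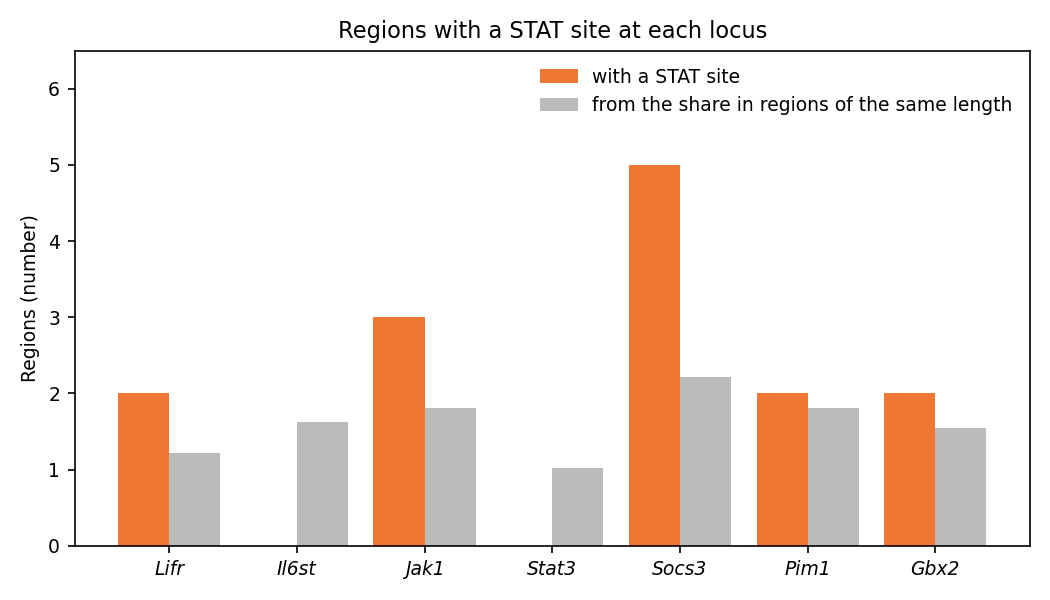
Number of accessible regions with a STAT site at each locus (orange bars), beside the sum of the shares found in all regions of the same length (grey bars). Socs3 had 5 such regions beside 2.22, and Il6st and Stat3 had 0 beside 1.62 and 1.02.

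Letters of other ES cell factors were counted in the same way. The octamer was found in 6 of the 102 regions (5.88%, interval 2.72 to 12.2%), beside 2.66% of all regions and 2.55% of those of the same length. SOX sites were found in 12 regions (11.8%, interval 6.86 to 19.4%), beside 16.0% of all regions. The ESRRB site TCAAGGTCA was found in 1 region, in an intron of Lifr, beside 2.24% of all regions. KLF sites were found in 25 regions (24.5%, interval 17.2 to 33.7%), beside 22.8% of all regions. For SOX, ESRRB and KLF sites the interval thus included the background, and for the octamer its lower bound lay just above it, with 6 regions counted. With a shorter reach the octamer interval included it too, at 3 of 40 regions with a reach of 20 kb (7.50%, interval 2.58 to 19.9%) and 3 of 66 with 50 kb (4.55%, interval 1.56 to 12.5%), but not at 5 of the 61 regions with the member as closest gene (8.20%, interval 3.55 to 17.8%). The side of the background on which the SOX and KLF shares lay depended on the settings. The SOX share was above it with a reach of 20 kb (25.0%) and 50 kb (16.7%), in gene bodies alone (23.8%) and by closest gene (19.7%), and the KLF share was below it with 20 kb (15.0%), 50 kb (22.7%) and in gene bodies alone (4 of 21 regions). In each of these settings the interval included the background. Of the 14 regions with a STAT site, 2 also held an octamer, 4 a SOX site and 6 a KLF site. Among all 9474 regions with a STAT site, 4.56% held an octamer, 21.3% a SOX site and 27.3% a KLF site.

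**Figure D4:**
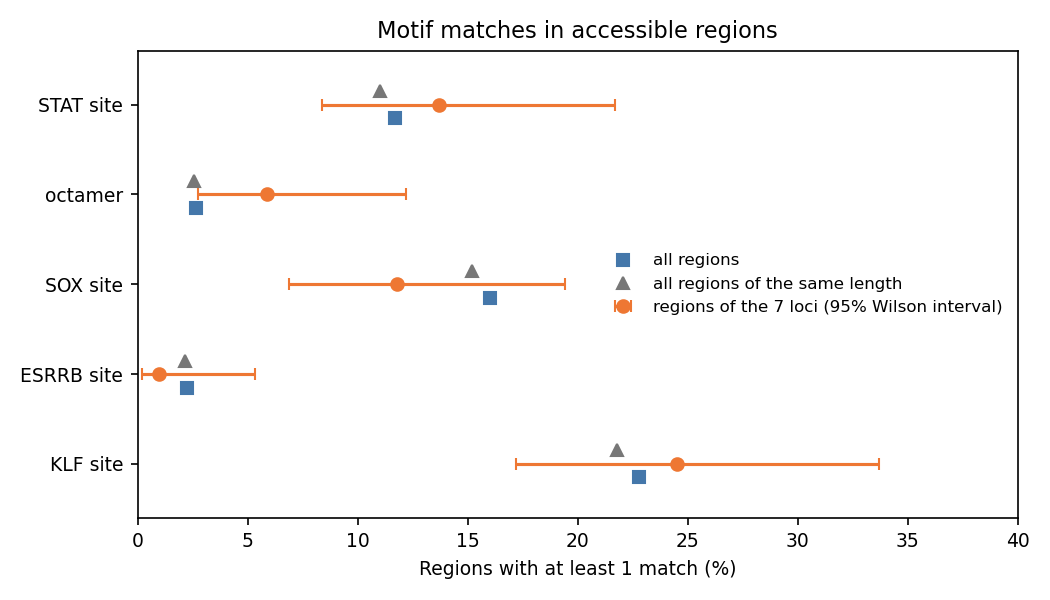
Share of regions with at least 1 match (x axis, %) for 5 motifs, for the 102 regions of the 7 loci (orange, with 95% Wilson intervals), all regions (blue squares) and all regions of the same length (grey triangles). The STAT site was present in 13.7% of the 102 regions and in 11.7% of all regions.

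By position, 24 of the 102 regions (23.5%) were centred in a promoter of any gene, beside 21.0% of all regions. A further 10 lay in exons (9.8%, beside 8.76% of all regions), 40 in introns (39.2%, beside 35.1%) and 28 between genes (27.5%, beside 35.2%). Within 1 kb of a TSS of their own gene lay 14 regions, 12 lay at 1 to 10 kb, 40 at 10 to 50 kb and 36 farther away. The member gene was the closest protein-coding gene for 61 of the 102 regions. The distance bins widen outwards, and neither count was set beside the same over other genes. The median width was 324.5 bp, beside 355 bp for all regions, and 29.4% were narrower than 200 bp, beside 19.8%. The 14 regions overlapping a promoter of their own gene had a median width of 470 bp and a median GC content of 65.3%, beside 322 bp and 54.0% for the other regions of the loci. Over the whole list, regions centred in a promoter of any gene had medians of 600 bp and 60.6%, and the others 320 bp and 50.3%. The 14 regions were taken by overlap and not by centre, so their medians are not directly comparable with these. Repeat-masked bases made up more than 50% of 6 regions (5.88%), beside 13.7% of all regions.

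**Figure D5:**
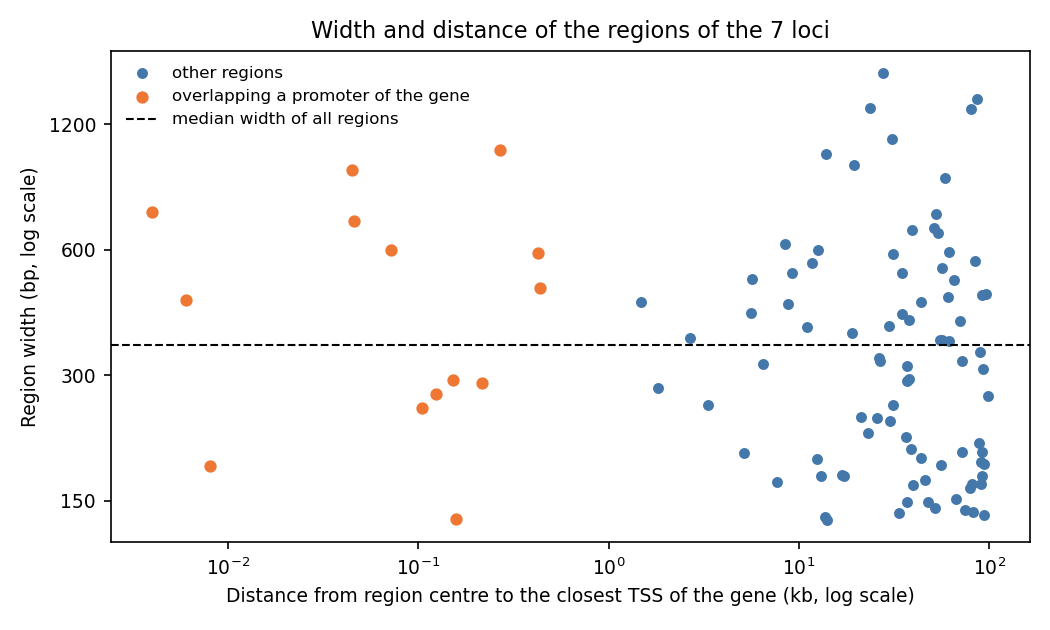
Width of each of the 102 regions (y axis, bp, log scale) by the distance of its centre from the closest TSS of its gene (x axis, kb, log scale). Orange points overlap a promoter of the gene and have a median width of 470 bp; the dashed line is the median of 355 bp over all regions.

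Other genes of the pathway were described from a list of 35 genes, of which 30 (85.7%) had a region at a promoter, beside 66.5% of all protein-coding genes. Their median number of regions was 15, as at the 7 loci, beside 11 over all protein-coding genes. The genes without such a region were the ligand genes Osm, Cntf, Il6 and Il11 and the transcription factor gene Stat4. Among ligands, Lif itself had a promoter region and 13 regions in its window. Cntf (3), Il6 (6) and Lif had the fewest, and Ctf1 (20), Il11 (21) and Clcf1 (25) the most, with 14 for Osm. All 4 other receptor genes had a promoter region, with 8 regions for Osmr, 19 for Il11ra1, 20 for Cntfr and 23 for Il6ra. All 3 other kinase genes had one as well, with 6 regions for Jak2, 17 for Tyk2 and 19 for Jak3. Of the transcription factor genes, Stat5a (10) and Stat5b (12) were among those with the fewest regions, and Stat4 (14), Stat2 (30) and Stat6 (31) had the most. Of the inhibitor genes, Ptpn11 (6), Ptpn2 (11) and Socs1 (13) had the fewest, and Cish (19), Socs2 (21) and Ptpn6 (27) the most. Among targets, Tfcp2l1 (10), Klf4 (12) and Myc (13) had the fewest, and Pim3 (21), Bcl3 (28) and Junb (30) the most.

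Marker genes were used to check the labelled cell type. A region overlapped a promoter of 6 of 7 ES cell markers, Pou5f1, Sox2, Esrrb, Zfp42, Klf4 and Tfcp2l1. Nanog had none there, its closest region being centred 4329 bp from a TSS, although its window held 32 regions. Promoter regions were also present at all 8 markers of primed or differentiating cells, both trophectoderm markers and all 4 fibroblast markers. Presence of a promoter region therefore did not separate the cell types, and it is not a measure of expression.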

How the data were processed

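The authors deposited 1 list of merged accessible regions for the 12 ATAC-seq libraries, with chromosome, start and end (mm10) and no values. The submitters' processing notes name STAR 2.5.3a, Picard, MACS2 2.1.1.20160309 and deepTools 2.4.2. Per the study's methods, peaks were called in each library and then merged, and those overlapping peaks of ChIP-seq input were dropped. Regions were placed on GENCODE M21 and sequence was read from GRCm38.p6, within whose chromosome lengths every region lay. Python 3.11.15, pandas 2.3.3, numpy 2.4.6, scipy 1.17.1, pysam 0.24.0 and matplotlib 3.10.9 were used. Motifs were searched on both strands, and motif and window searches were tested on simulated data. Promoters took precedence over exons, introns and intergenic sequence at the region centre. The members and lists were chosen with earlier results of these data known, and no test was made. Besides the 7 genes, the text names neighbours closest to at least 3 regions or in the pathway list, and pathway genes with the 3 highest and 3 lowest counts per role or no promoter region; 1 gene that this rule names is not reported here. Named regions overlap a promoter of the gene, are the widest, lie farthest from a TSS in the gene body, or hold at least 2 STAT sites or 1 within 1 kb of a TSS. Other genes and regions were named after their values were seen. Stretches of at most 200 bases around STAT sites, outside annotated UTRs, are printed.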

Additional observations from a re-analysis of the deposited data

How the results depend on the processing

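Of 40 alternatives for values over the 7 loci, 25 left a count within 1.5 times or a share within its 95% interval. The count of 102 regions fell to 40 with a reach of 20 kb, 66 with 50 kb, 21 in gene bodies alone and 61 where the member had to be the closest gene, and the median of 15 per window became 6, 9, 3 and 9, since each of these settings takes a smaller part of the same windows. Of 63 alternatives for counts of single genes, 40 stayed within 1.5 times. The order of the counts changed: Socs3 led with 20 regions, but Lifr with 10 at a reach of 20 kb and 8 in gene bodies, and Pim1 with 13 at 50 kb and 12 by closest gene. Without regions narrower than 200 bp, Socs3 and Pim1 had 13 each, and Jak1 fell from 15 to 9. Of 63 alternatives for densities of single genes, added after seeing the data, 48 stayed within 1.5 times. Among those that moved, Lifr rose from 4.17 to 7.88 with a reach of 20 kb and to 7.49 in its gene body. In their short gene bodies, Pim1 rose to 56.0 and Socs3 to 50.4, while Gbx2 fell to 0. By closest gene, with the window length kept whole, Il6st fell from 7.11 to 4.27, Jak1 from 4.84 to 2.9 and Stat3 from 3.21 to 0.802. Socs3 fell there from 9.96 to 4.48 and Pim1 from 9.38 to 5.92. The share of regions centred in a promoter rose from 23.5 to 51.0% with promoters of 5 kb to both sides. The share with a STAT site was 3.92% with TTCCNGGAA, 6.86% with 4 bases between TTC and GAA and 7.84% with sites within 100 bp of the centre, each of which was also less frequent over all regions (1.89, 9.72 and 5.65%). SOX sites were in 25.0% of regions with a reach of 20 kb, 16.7% with 50 kb, 23.8% in gene bodies and 19.7% by closest gene, and KLF sites in 15.0%, 22.7%, 4 of 21 regions and 23.0%; the cause was not tested. Without regions narrower than 200 bp, ESRRB sites were in 0%, since the only such region is narrower. No paired analysis was possible because the list holds no level per library and the results come from no test; for the same reason no replicate could be left out. The list gives no number of reads behind a region.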
